A study of Mus musculus with 16 samples.

Results

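The C/EBP family comprises Cebpa, Cebpb, Cebpd, Cebpe and Cebpg, whose proteins bind DNA as dimers through a basic leucine zipper. Their loci were followed by ATAC-Seq, which marks accessible chromatin, in 16 libraries of mouse fetal liver hematopoietic progenitors. Members were every region holding a peak within 100 kb of the 5′ end of 1 of these 5 genes (GENCODE M21, mm10), including the Cebpa +37 kb enhancer. These windows held 127 of the 90549 regions found in the series, and 81 of the 127 had a peak in at least 4 of the 16 libraries and were tested, as were 57174 regions in all. The other 46 were too rarely present to test.

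All cells were progenitors immortalized with HoxB8, cultured with β-estradiol, infected with retrovirus, grown for 3 d and sorted for GFP. The 4 groups of 4 libraries were hi-77+/+ empty (wild type, control vector), hi-77-/- empty (both copies of the Gata2 -77 enhancer deleted, control vector), hi-77-/- GATA2 (the same deletion with a GATA2 vector) and hi-77-/- 9aa-Ins (the same deletion with GATA2 carrying 9 extra amino acids between its zinc fingers). The deletion comparison, hi-77-/- empty minus hi-77+/+ empty, addressed what loss of the enhancer does, and the comparisons of GATA2 and of 9aa-Ins with hi-77-/- empty addressed what each protein restores or alters. These 3 share the hi-77-/- empty libraries. A further comparison set 9aa-Ins against GATA2 directly. The labels distinguish no lines within a genotype, so genotype and cell line cannot be told apart, and p-values measure the spread between these libraries. The study calls the replicates of the hi-77-/- groups biological, and whether they came from separate cultures or infections is not given in the sources used here.

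C/EBP factors act in sequence along the granulocyte and monocyte path. C/EBPα is required to form granulocyte-monocyte progenitors, C/EBPε drives late granulocyte maturation, C/EBPβ and C/EBPδ serve inflammatory and emergency responses, and C/EBPγ, which lacks an activation domain of its own, pairs with other leucine zipper proteins. GATA2 is a zinc finger factor of stem and progenitor cells that binds WGATAR, that is GATA after A or T and before A or G. The enhancer 37 kb downstream of Cebpa is known for its activity in myeloid progenitors.

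The measure was the rank of a region's best peak among the 49000 strongest of its library, where rank 1 is the strongest. A rank score, log2 of one more than 49000 divided by the rank, rose by 1 when the rank halved and was 0 where no peak was listed. A region is named by its nearest C/EBP gene and the distance of its middle from the 5′ end, positive downstream. A region was called where limma gave an adjusted p below 0.05 over all 57174 tested regions. It was described as opened or closed, with no test, where all 4 libraries of one group and none of the other had a peak. Read depth is unknown from peak lists, and absence means not among the 49000 strongest.

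Windows of 300 bases at 7 regions carry the main patterns below (mm10, plus strand, centred on the summit of the best-placed peak, with WGATAR matches on either strand in capitals). The first is the Cebpa enhancer at chr7:35156488-35156787, between genes, where 16 of 16 libraries had their summit in the window.
Cebpa +37.5 kb: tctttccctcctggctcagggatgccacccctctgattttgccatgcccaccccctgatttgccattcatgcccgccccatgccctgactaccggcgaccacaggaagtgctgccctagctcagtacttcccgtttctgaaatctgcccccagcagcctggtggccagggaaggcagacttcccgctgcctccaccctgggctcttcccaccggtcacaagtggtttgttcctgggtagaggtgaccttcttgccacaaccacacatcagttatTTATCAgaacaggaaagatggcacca
The next lies upstream of Cebpa at chr7:35098904-35099203, between genes, and had a peak in the hi-77-/- empty and 9aa-Ins libraries only. Of the 8 libraries with a peak, 5 had their summit in this window, which runs past the end of the region.
Cebpa -20.4 kb: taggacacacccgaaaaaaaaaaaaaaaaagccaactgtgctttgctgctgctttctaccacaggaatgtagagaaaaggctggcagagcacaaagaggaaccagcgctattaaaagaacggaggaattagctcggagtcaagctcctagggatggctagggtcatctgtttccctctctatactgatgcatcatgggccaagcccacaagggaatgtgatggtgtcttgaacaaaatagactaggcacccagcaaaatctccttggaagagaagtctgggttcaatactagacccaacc
A pair downstream of Cebpb, between genes, ranked far higher in hi-77-/- empty than in hi-77+/+ empty libraries, at chr2:167754038-167754337 and chr2:167751608-167751907.
Cebpb +65.3 kb: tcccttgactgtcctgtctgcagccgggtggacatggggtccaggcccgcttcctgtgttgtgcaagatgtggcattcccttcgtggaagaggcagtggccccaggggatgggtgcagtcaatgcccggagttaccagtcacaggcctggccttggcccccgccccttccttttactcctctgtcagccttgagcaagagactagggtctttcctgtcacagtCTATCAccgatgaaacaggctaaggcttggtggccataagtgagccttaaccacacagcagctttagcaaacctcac
Cebpb +62.9 kb: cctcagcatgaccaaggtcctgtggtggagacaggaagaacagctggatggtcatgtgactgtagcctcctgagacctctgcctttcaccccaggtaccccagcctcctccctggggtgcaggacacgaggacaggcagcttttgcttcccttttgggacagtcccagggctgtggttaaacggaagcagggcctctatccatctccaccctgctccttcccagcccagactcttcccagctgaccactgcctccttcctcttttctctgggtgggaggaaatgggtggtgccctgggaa
Downstream of Cebpe, between genes at chr14:54705872-54706171, lies the region of its window with the largest rise under GATA2.
Cebpe +5.8 kb: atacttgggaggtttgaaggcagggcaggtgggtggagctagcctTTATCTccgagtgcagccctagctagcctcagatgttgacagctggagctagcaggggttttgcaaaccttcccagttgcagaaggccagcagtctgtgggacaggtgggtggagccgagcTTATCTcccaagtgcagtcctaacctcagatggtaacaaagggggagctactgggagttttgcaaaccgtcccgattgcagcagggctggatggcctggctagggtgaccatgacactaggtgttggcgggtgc
The last 2 had peaks in hi-77-/- GATA2 libraries only, at chr14:54788251-54788550 between genes and at chr7:34984761-34985060 in an intron of Pepd.
Cebpe -76.3 kb: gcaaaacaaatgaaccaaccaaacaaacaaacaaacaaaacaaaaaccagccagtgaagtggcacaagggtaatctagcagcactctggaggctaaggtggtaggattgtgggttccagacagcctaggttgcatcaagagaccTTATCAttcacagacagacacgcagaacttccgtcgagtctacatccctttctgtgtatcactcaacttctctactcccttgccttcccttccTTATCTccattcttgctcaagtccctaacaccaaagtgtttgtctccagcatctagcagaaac
Cebpg +71.8 kb: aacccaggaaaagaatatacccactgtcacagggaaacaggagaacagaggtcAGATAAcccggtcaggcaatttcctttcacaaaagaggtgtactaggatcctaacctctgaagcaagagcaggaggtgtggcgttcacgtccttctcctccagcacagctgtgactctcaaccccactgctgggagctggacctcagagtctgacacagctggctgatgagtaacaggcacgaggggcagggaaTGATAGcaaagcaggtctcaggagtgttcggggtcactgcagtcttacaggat

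Across the windows, deletion moved regions in both directions, the regions called with GATA2 all ranked higher around Cebpe and mostly lower around Cebpb, and those called with 9aa-Ins mostly ranked higher. In the deletion comparison 16 of 81 tested regions ranked higher and 17 lower, against 20.2% higher and 21% lower over all tested regions. With GATA2, 13 were higher and 11 lower (9.15% and 12.4% over all regions). With 9aa-Ins, 11 were higher and 2 lower (6.38% and 2.22%). In 9aa-Ins against GATA2, 17 were higher and 13 lower (16.6% and 8.64%). The family's share of called regions was thus near the background in the deletion comparison and above it in the higher direction with 9aa-Ins or GATA2. In 9aa-Ins against GATA2 it was above the background in both directions. These shares were not tested. Of the 81, 5 had peaks in GATA2 libraries alone and so entered the test through that group. Without such regions 9 of 76 were higher with GATA2 (8.3% over all regions) and 9 lower in 9aa-Ins against GATA2 (7.7%). The 11 higher with 9aa-Ins became 6 with scores centred on each chromosome's median within a library or without the filter on presence, and 5 without hi-77-/- empty replicate 1, 3 or 4. The split of the last comparison depended on scaling too: centred by chromosome it was 10 higher and 18 lower.

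The median difference over the 81 regions was 0.08 in the deletion comparison and 0.09 with GATA2, and it was 0.05 with 9aa-Ins and 0.00 between 9aa-Ins and GATA2, beside 0.00 over all tested regions in each. Complete gain or loss was rare. In the deletion comparison 4 of 103 regions with a peak in either group opened and 1 closed, against 4.29% opened and 2.53% closed in the series. With GATA2, 5 of 108 opened and 1 closed (2.16% and 2.78%). With 9aa-Ins, 2 of 94 opened and none closed (1.81% and 0.229%). For 9aa-Ins against GATA2, 2 of 103 opened and 5 closed (3.69% and 1.83%). Constant presence in the 16 libraries was seen at 38 of the 127 regions (29.9%) and presence in a single library at 23, while 23.4% of all regions were constant.

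**Figure D1:**
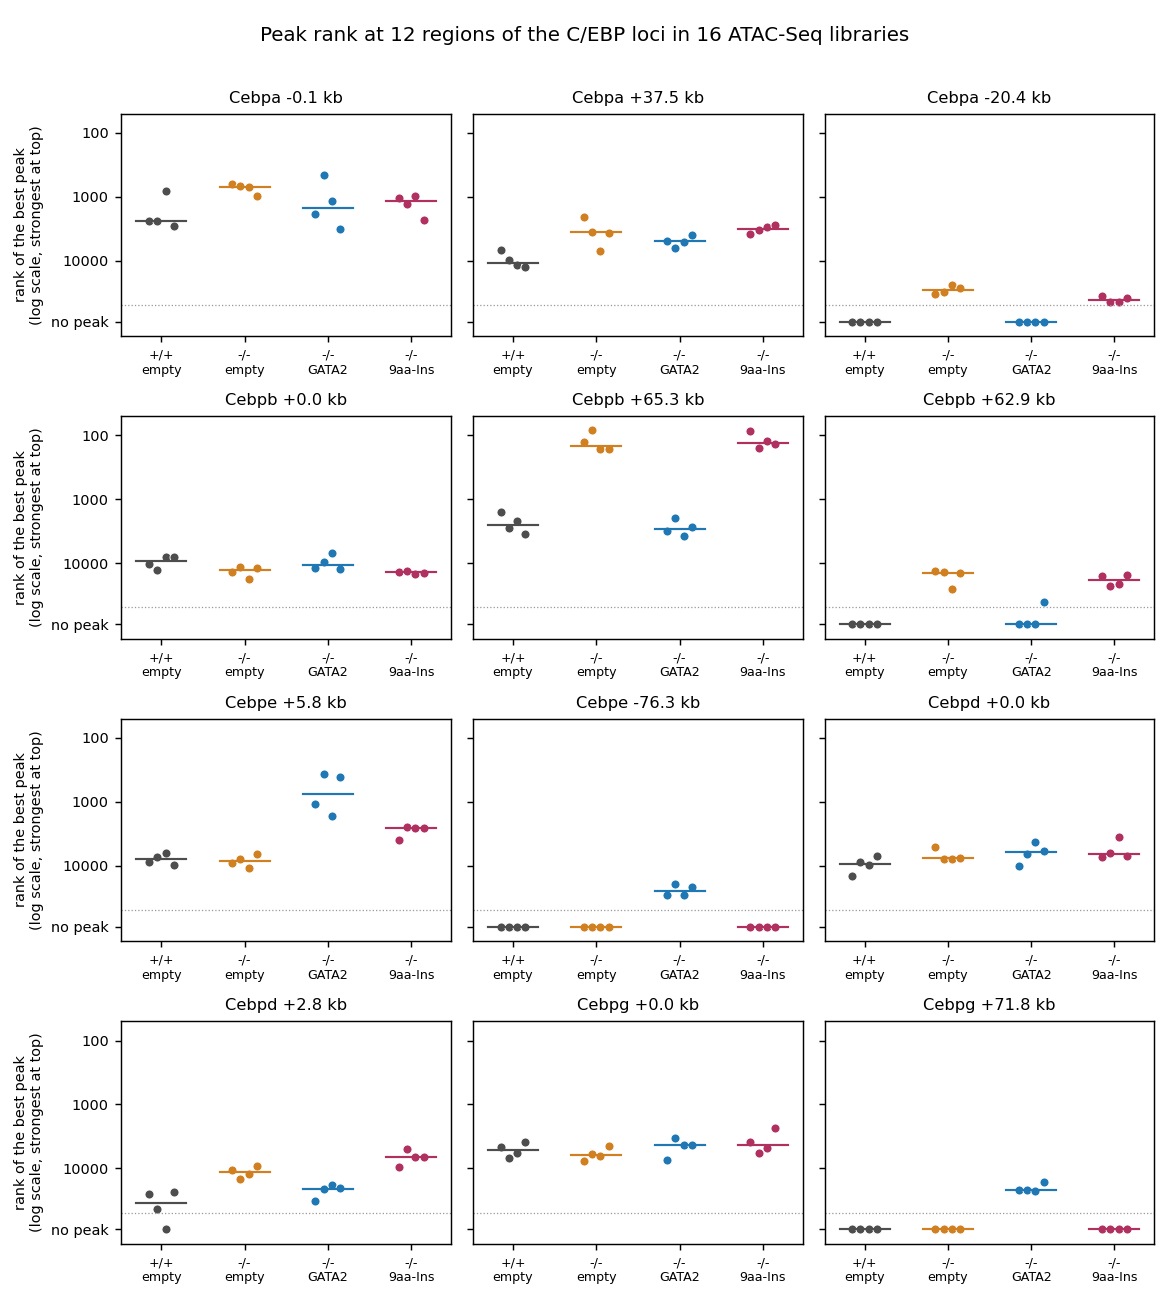
Rank of the best peak (log scale, strongest at the top) at 12 regions of the C/EBP loci, by group. Each point is a library, the bar is the group median, and points below the dotted line had no peak among the 49000 strongest. Cebpb +65.3 kb sits at ranks 83 to 166 in hi-77-/- empty libraries and at 1574 to 3437 in hi-77+/+ empty libraries.

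Cebpa lies at chr7:35119293-35121928 (plus strand, ENSMUSG00000034957.10) and had 32 regions, 17 of them tested. Its window was mixed under deletion, with 5 regions higher and 6 lower, and less moved by the vectors, with 1 higher and 3 lower for GATA2 and 1 of each for 9aa-Ins. Over all tested regions 20.2% ranked higher and 21% lower after deletion, 9.15% and 12.4% with GATA2, and 6.38% and 2.22% with 9aa-Ins. At the promoter region (-0.1 kb, chr7:35118051-35120264) hi-77+/+ empty replicates 1 to 4 ranked 2395, 2366, 801 and 2917, and hi-77-/- empty replicates 639, 670, 715 and 977. GATA2 libraries ranked 1890, 456, 1154 and 3244, and 9aa-Ins libraries 1046, 1280, 989 and 2313. The control replicate at 801 overlaps the deleted group. The deletion difference was 1.37 ± 0.50 (SE, adjusted p = 0.0295), and it no longer passed when 1 library was left out, for 6 of the 8 libraries (differences 1.16 to 1.35). The GATA2 difference was -0.86 ± 0.50 (adjusted p = 0.255) and that of 9aa-Ins -0.84 ± 0.50 (adjusted p = 0.408).

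The Cebpa enhancer, spanning chr7:35156193-35157436, had a peak in all 16 libraries. In hi-77+/+ empty libraries it ranked 6781, 9835, 11865 and 12390, and in hi-77-/- empty libraries 2069, 3506, 6963 and 3641. Ranks were 4917, 6227, 5032 and 4028 with GATA2 and 3848, 3352, 2973 and 2726 with 9aa-Ins. Only hi-77-/- empty replicate 3 reached into the range of the controls. The enhancer ranked higher after deletion by 1.43 ± 0.30 (adjusted p = 0.000457). With peaks of 1 kb or wider left out, 3 hi-77+/+ empty and 2 hi-77-/- empty libraries kept a peak there, and the difference was 0.015 and not called. The differences of GATA2 (-0.44 ± 0.30, adjusted p = 0.358) and 9aa-Ins (0.20 ± 0.30, adjusted p = 0.866) from hi-77-/- empty did not pass, nor did 9aa-Ins against GATA2 (0.64 ± 0.30, adjusted p = 0.13). A separate stretch at +36.2 kb had a peak in 1 library, hi-77+/+ empty replicate 3, at rank 47053. The printed enhancer window holds 1 WGATAR match, 2 RUNX motifs (TGTGGT) and no C/EBP motif (TTGCNNAA).

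Other intergenic regions of the window were present after deletion and absent from the controls. At Cebpa -20.4 kb (chr7:35098710-35099134) hi-77-/- empty libraries ranked 32761, 30824, 23953 and 26353 and 9aa-Ins libraries 35917, 43625, 43398 and 37907, while no hi-77+/+ empty or GATA2 library had a peak. The region opened after deletion (0.79 ± 0.13, adjusted p = 4.04e-05) and closed with GATA2 (-0.79 ± 0.13, adjusted p = 6.73e-05). With 9aa-Ins it was present and lower than in hi-77-/- empty (-0.50 ± 0.13, adjusted p = 0.0161), a call lost without 9aa-Ins replicate 2 or 3. Cebpa +31.8 kb, just before the enhancer, was absent in hi-77+/+ empty, at 36544, 30825, 22066 and 20674 in hi-77-/- empty and at 25169, 27753, 29417 and 18357 with 9aa-Ins. Among GATA2 libraries only replicate 4 had it, at 32960. Its difference was 0.87 ± 0.20 for deletion (adjusted p = 0.00125), -0.73 ± 0.20 for GATA2 (adjusted p = 0.00973) and 0.84 ± 0.20 for 9aa-Ins against GATA2 (adjusted p = 0.00271). That GATA2 library lay within the range of the hi-77-/- empty libraries, which also overlapped those with 9aa-Ins. Where peaks had to cover 50% of the region, the differences for deletion and GATA2 were 0.29 and -0.14 and lost their calls.

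Regions that ranked lower after deletion lay among these. Cebpa +52.8 kb (chr7:35171807-35172369) ranked 6782, 4355, 6129 and 6185 in hi-77+/+ empty and 18156, 18306, 11287 and 15328 in hi-77-/- empty libraries, a difference of -1.42 ± 0.23 (adjusted p = 3.04e-05). Cebpa +5.6 kb ranked 6904 to 9563 in the controls and 14026 to 30451 in hi-77-/- empty, a difference of -1.22 ± 0.25 (adjusted p = 0.000326). At each the groups do not overlap, and 21% of all tested regions ranked lower after deletion. Neither passed with GATA2 (0.41 ± 0.23, adjusted p = 0.241, and -0.27 ± 0.25, adjusted p = 0.532) or with 9aa-Ins (0.05 ± 0.23 and -0.02 ± 0.25, both with an adjusted p of 1).

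Cebpg lies on the same chromosome, at chr7:35046422-35056573 (minus strand, ENSMUSG00000056216.9), with its 5′ end 62.7 kb from that of Cebpa. It had 34 regions, 17 tested, and shared 27 of them with Cebpa. Its promoter region (+0.0 kb) was strong and steady, at 4680, 6903, 5675 and 3837 in hi-77+/+ empty and 7742, 5874, 6472 and 4481 in hi-77-/- empty libraries. It ranked 7263, 3349, 4335 and 4338 with GATA2 and 3847, 5771, 4834 and 2312 with 9aa-Ins. All 4 groups overlap and no comparison passed, the largest difference being 0.60 ± 0.30 with 9aa-Ins (adjusted p = 0.286).

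Under GATA2, 2 regions downstream of Cebpg within Pepd, which encodes peptidase D, stood out. At Cebpg +71.8 kb (chr7:34984474-34985058, intron) the GATA2 libraries ranked 21943, 21772, 22127 and 16300 and no other library had a peak, a difference of 1.27 ± 0.14 (adjusted p = 2.49e-07). Because the region entered the test through that group alone, the difference is a description. In the full lists 9aa-Ins libraries had it at 87909, 73124, 53691 and 56065. At Cebpg +87.3 kb (exon) GATA2 libraries ranked 21942, 20092, 18777 and 21149. There 1 hi-77-/- empty library (33184), 3 of the 9aa-Ins libraries (28750 to 47386) and no control had a peak, and the GATA2 difference was 1.12 ± 0.18 (adjusted p = 3.64e-05). Cebpg +15.1 kb instead opened with 9aa-Ins, at 38446, 32996, 27629 and 32634 (0.58 ± 0.12, adjusted p = 0.00159), with 3 GATA2 libraries at 39863 to 47861 and none of the empty-vector libraries. In the full lists hi-77-/- empty replicate 2 had Cebpg +15.1 kb at 57068. The regions at +87.3, +71.8 and +15.1 kb held 3, 2 and 0 WGATAR matches in their summit windows, and +15.1 kb held 2 C/EBP motifs.

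Cebpb (chr2:167688915-167690418, plus strand, ENSMUSG00000056501.3) had the most regions, 49, of which 31 were tested. After deletion 9 ranked higher and 3 lower (20.2% and 21% of all tested regions). With GATA2 1 ranked higher and 7 lower (9.15% and 12.4%), and with 9aa-Ins 5 higher and 1 lower (6.38% and 2.22%). In 9aa-Ins against GATA2 12 were higher and 1 lower (16.6% and 8.64%). With scores centred by chromosome the last split was 6 higher and 3 lower, and that of GATA2 3 higher and 5 lower. The promoter region (+0.0 kb) did not pass in any comparison. It ranked 10234, 12772, 8094 and 7864 in hi-77+/+ empty, 13799, 11357, 17438 and 11974 in hi-77-/- empty, 11963, 9636, 6786 and 12144 with GATA2 and 13481, 13043, 14546 and 14042 with 9aa-Ins. Its deletion difference was -0.49 ± 0.22 (adjusted p = 0.0755).

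The largest difference of the family was at Cebpb +65.3 kb (chr2:167752771-167755735), between genes. Its ranks were 1574, 2827, 2167 and 3437 in hi-77+/+ empty libraries and 127, 83, 164 and 166 in hi-77-/- empty libraries. GATA2 libraries ranked 3111, 1948, 3705 and 2719, and 9aa-Ins libraries 85, 157, 124 and 137. The hi-77+/+ empty and GATA2 libraries thus formed a lower set, and the hi-77-/- empty and 9aa-Ins libraries a higher one, with no overlap between the sets. The difference was 4.20 ± 0.43 for deletion (adjusted p = 5.11e-08) and -4.42 ± 0.43 for GATA2 (adjusted p = 3.65e-08). It was 0.09 ± 0.43 with 9aa-Ins (adjusted p = 1) and 4.51 ± 0.43 when 9aa-Ins was set against GATA2 (adjusted p = 5.43e-08). The region is 2965 bp long, and with peaks of 1 kb or wider left out the last difference was -0.31, while those of deletion (3.77) and GATA2 (-4.08) kept their direction and lost their calls. Its window holds 3 C/EBP motifs and 1 WGATAR match.

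Nearby, Cebpb +62.9 kb (chr2:167751476-167752133) was absent in hi-77+/+ empty and ranked 12976, 13462, 25447 and 14398 in hi-77-/- empty libraries. It ranked 15879, 22440, 20866 and 15283 with 9aa-Ins and had a peak in 1 GATA2 library, replicate 4, at 40787. In the full lists GATA2 replicates 1 to 3 had it at 49418, 56874 and 49885. There hi-77+/+ empty replicates 1 and 2 had it at 65566 and 54652. The deletion difference was 1.62 ± 0.21 (adjusted p = 1.4e-06), that of GATA2 -1.56 ± 0.21 (adjusted p = 3.79e-06) and that of 9aa-Ins against GATA2 1.35 ± 0.21 (adjusted p = 2.79e-05). Its window holds no WGATAR match, 3 ETS motifs (CGGAAG or AGGAAG) and 2 RUNX motifs. Far upstream, Cebpb -98.3 kb also opened after deletion (0.76 ± 0.18, adjusted p = 0.00191), a call lost where peaks had to cover 50% of the region. All 4 GATA2 libraries kept a peak there (-0.27 ± 0.18, adjusted p = 0.365). It ranked higher with 9aa-Ins than with GATA2 (0.81 ± 0.18, adjusted p = 0.0016). In the full lists hi-77+/+ empty replicate 2 had Cebpb -98.3 kb at 68155. Cebpb -2.3 kb, in an intron of Tmem189, also ranked higher in every hi-77-/- empty library (14396 to 17821) than in hi-77+/+ empty (31713 to 45553, 1 without a peak), by 1.31 ± 0.20 (adjusted p = 9.48e-06). It was lower with GATA2 (33543 to 35916, 1 without a peak), by -1.24 ± 0.20 (adjusted p = 2.86e-05). Its 9aa-Ins difference was -0.41 ± 0.20 (adjusted p = 0.245). Cebpb -16.4 kb was higher after deletion (0.82 ± 0.19, adjusted p = 0.00142). It was lower with both GATA2 (-0.76 ± 0.19, adjusted p = 0.00454) and 9aa-Ins (-0.67 ± 0.19, adjusted p = 0.0287). All 3 calls were lost where peaks had to cover 50% of the region.

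The region that most separated 9aa-Ins from every other group was Cebpb -39.5 kb (chr2:167648888-167649855), in introns of Gm20431 and Tmem189. The 9aa-Ins libraries ranked 3282, 3820, 2912 and 2449. The other 12 ranked 7138 to 18761, with no overlap. The difference was 1.71 ± 0.24 from hi-77-/- empty (adjusted p = 4.6e-05) and 1.73 ± 0.24 from GATA2 (adjusted p = 8.39e-06), against 0.34 ± 0.24 for deletion (adjusted p = 0.286). Cebpb -27.1 kb, at the 5′ end of Gm20431, and Cebpb +21.6 kb, in an intron of A530013C23Rik, were also higher with 9aa-Ins, by 0.74 ± 0.22 (adjusted p = 0.0348) and 0.94 ± 0.25 (adjusted p = 0.0171), both lost when some single libraries were left out. Cebpb +35.0 kb went the other way, higher with GATA2 (21608 to 29617) than in hi-77-/- empty (35414 to 48989) by 0.65 ± 0.15 (adjusted p = 0.00232) and found in 1 of 4 9aa-Ins libraries.

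After deletion 3 regions of the Cebpb window ranked lower, where 21% of all tested regions did. Cebpb +9.1 kb ranked 3436 to 7648 in hi-77+/+ empty and 10412 to 13800 in hi-77-/- empty (-1.22 ± 0.22, adjusted p = 0.000108), and ranged from 9183 to 12352 with GATA2. Cebpb -47.3 kb ranked 14567 to 19387 in the controls, with 2 of 4 hi-77-/- empty libraries, 27752 and 30081, having a peak (-1.24 ± 0.24, adjusted p = 0.000194). Neither passed for GATA2 (0.16 ± 0.22, adjusted p = 0.709, and 0.16 ± 0.24, adjusted p = 0.746). The other region, Cebpb -83.5 kb, ranked 10064 to 25976 in hi-77+/+ empty and 22263 to 27751 in hi-77-/- empty, so those groups overlap. Its deletion difference was -0.86 ± 0.24 (adjusted p = 0.00516).

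Cebpd, at chr16:15887286-15891031 (plus strand, ENSMUSG00000071637.5), had the fewest regions, 8, and 5 were tested. The promoter region (+0.0 kb) ranked 14339, 8591, 9855 and 7044 in hi-77+/+ empty, 5122, 7819, 7745 and 7436 in hi-77-/- empty, 10073, 6433, 4176 and 5770 with GATA2 and 7315, 6287, 3566 and 6929 with 9aa-Ins. The groups overlap and none of the 4 comparisons passed (largest difference 0.47 ± 0.29 for deletion, adjusted p = 0.197).

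Cebpd +2.8 kb (chr16:15889581-15890525), which covers a UTR of Cebpd and a coding exon of Spidr, did differ. It ranked 25313, 43374 and 22996 in 3 hi-77+/+ empty libraries and was absent from replicate 3. Ranks were 10455, 14875, 12382 and 9210 in hi-77-/- empty libraries, 32350, 20862, 17987 and 20355 with GATA2 and 9380, 4910, 6656 and 6580 with 9aa-Ins. Every hi-77-/- empty library lay above every hi-77+/+ empty and GATA2 library. The difference was 1.53 ± 0.26 for deletion (adjusted p = 4.1e-05), -0.95 ± 0.26 for GATA2 (adjusted p = 0.00805) and 1.73 ± 0.26 for 9aa-Ins against GATA2 (adjusted p = 1.68e-05). Against hi-77-/- empty the 9aa-Ins difference of 0.78 ± 0.26 did not pass (adjusted p = 0.0601). All 3 calls were lost where peaks had to cover 50% of the region, at 1.10 for deletion, -0.79 for GATA2 and 0.29 for 9aa-Ins against GATA2.

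**Figure D2:**
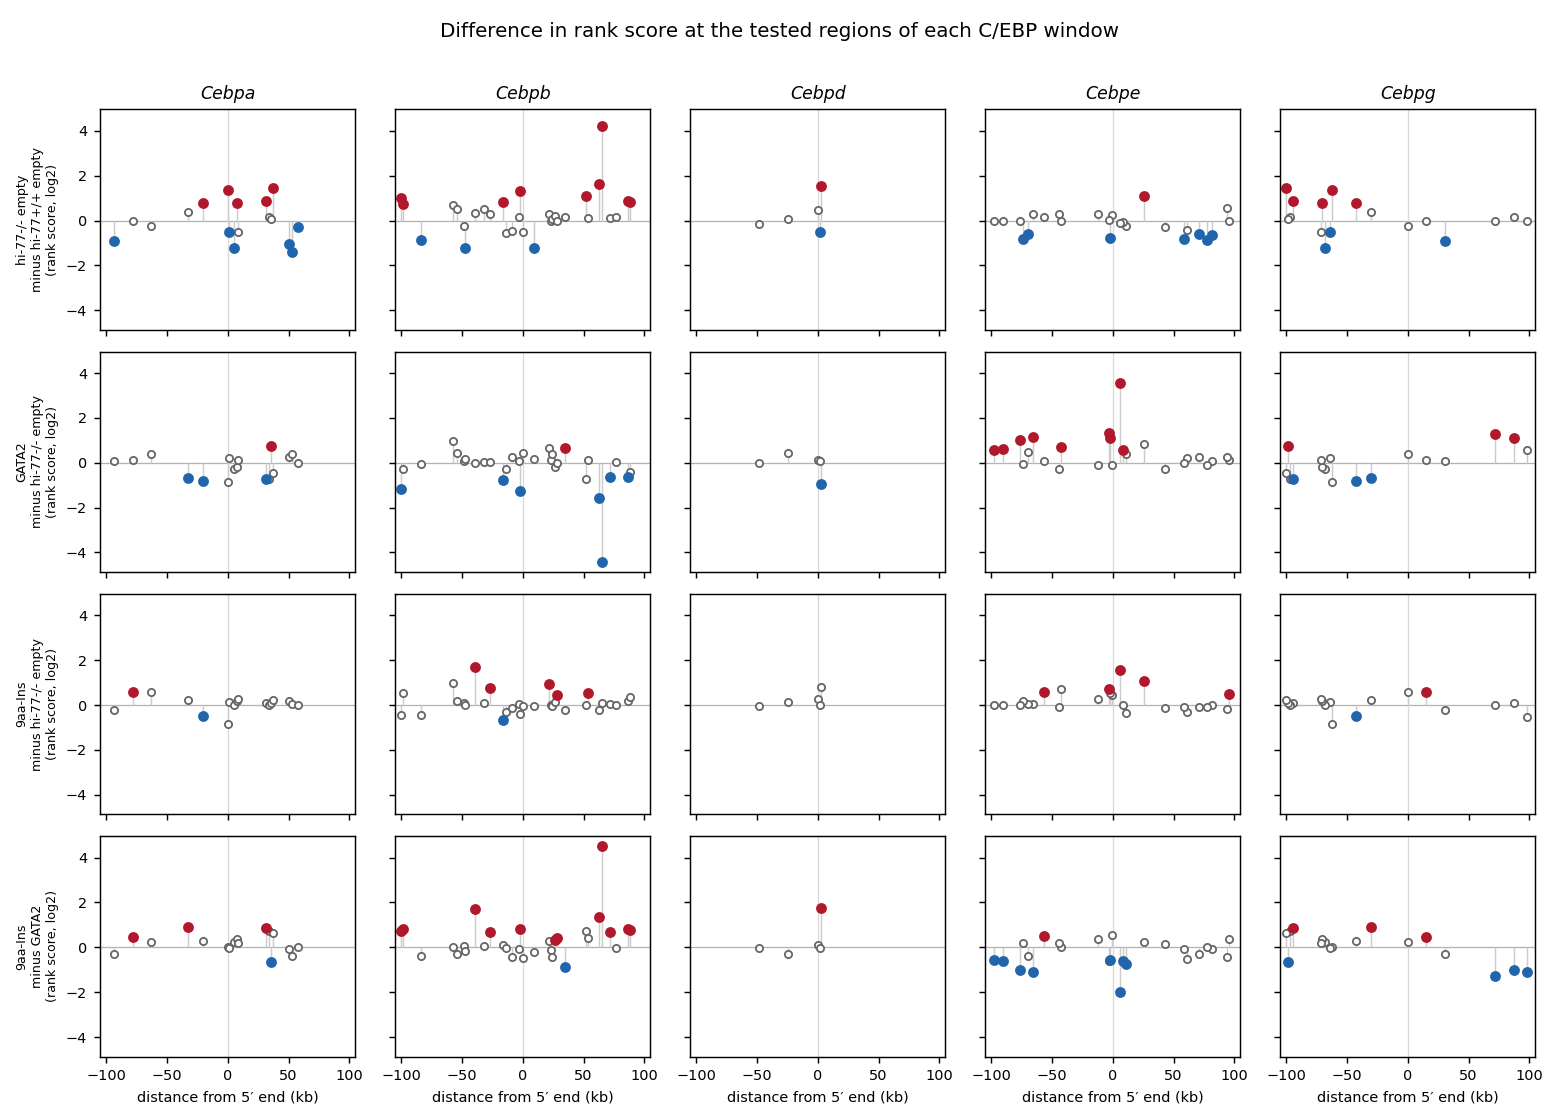
Difference in rank score (log2 units, first group minus second) against distance from the 5′ end (kb) for the tested regions of each gene's window. Rows are the 4 comparisons, red and blue points were called higher and lower, and open points were not called. In the Cebpe column 9 points are red under GATA2 and none is blue, 3 of the 9 being regions with peaks in GATA2 libraries alone. Over all tested regions 9.15% were called higher and 12.4% lower with GATA2.

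Cebpe (chr14:54710360-54712174, minus strand, ENSMUSG00000052435.7) had 31 regions, 25 tested. After deletion 1 ranked higher and 7 lower (20.2% and 21% of all tested regions), and with GATA2 9 higher and none lower (9.15% and 12.4%). With 9aa-Ins 5 were higher and none lower (6.38% and 2.22%), and in 9aa-Ins against GATA2 1 higher and 8 lower (16.6% and 8.64%). Without 3 regions that had peaks in GATA2 libraries alone, the counts were 6 of 22 higher with GATA2 (8.3% of all regions) and 5 lower in 9aa-Ins against GATA2 (7.7%). Centred by chromosome, GATA2 again gave 9 higher and none lower, 9aa-Ins 1 higher and none lower, and 9aa-Ins against GATA2 none higher and 11 lower. The chromosome 14 median score was 0.11 higher in 9aa-Ins than in hi-77-/- empty libraries and 0.21 higher than in GATA2 libraries. At the 5′ end itself (-0.3 kb) a peak was listed in GATA2 replicates 3 and 4 only, at 42226 and 30815. The region was not tested. In the full lists 2 hi-77+/+ empty, 3 GATA2 and 4 9aa-Ins libraries had a peak there. Beside it, Cebpe -0.8 kb had a peak in 13 of 16 libraries, some in every group, and was not called in any comparison. Its largest difference was 0.54 ± 0.25 for 9aa-Ins against GATA2 (adjusted p = 0.124).

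A downstream enhancer of Cebpe is known in myeloid cells, and the region at Cebpe +5.8 kb (chr14:54705588-54707208) had the largest rise of the family under GATA2. It ranked 8646, 7152, 6310 and 9804 in hi-77+/+ empty and 9105, 7791, 10872 and 6597 in hi-77-/- empty libraries. With GATA2 it ranked 1088, 364, 1654 and 403, and with 9aa-Ins 3964, 2495, 2599 and 2602. The empty-vector groups overlap, and the 9aa-Ins libraries lie between them and the GATA2 libraries without overlap. The difference was -0.10 ± 0.37 for deletion (adjusted p = 0.886) and 3.56 ± 0.37 for GATA2 (adjusted p = 1.3e-07). It was 1.56 ± 0.37 with 9aa-Ins (adjusted p = 0.00744) and -2.00 ± 0.37 for 9aa-Ins relative to GATA2 (adjusted p = 0.000228). With peaks of 1 kb or wider left out, a peak remained in 2 GATA2 and 3 9aa-Ins libraries and no call was kept, at 0.57 for GATA2, 0.95 for 9aa-Ins and 0.38 for the last difference. The window printed above holds 2 WGATAR matches, 3 C/EBP motifs and 7 E-boxes (CANNTG).

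Upstream of Cebpe, 3 intergenic regions had a peak in all 4 GATA2 libraries and in no other. Cebpe -76.3 kb (chr14:54788285-54788596) ranked 28423, 19129, 28054 and 21754, Cebpe -90.5 kb (chr14:54802380-54802925) 36558, 26989, 36362 and 30816, and Cebpe -97.3 kb (chr14:54809247-54809686) 36559, 22459, 42228 and 34402. The first 2 were absent from the full lists of the other 12 libraries too. Their GATA2 differences were 1.03 ± 0.13, 0.60 ± 0.11 and 0.57 ± 0.13, again a description since the GATA2 libraries alone brought them into the test. Nearer gene starts were those of Slc7a8, 6.3 kb from the first, and Rnf212b, 11.2 and 4.5 kb from the others. Summit windows held 2, 3 and 2 WGATAR matches and 1, 2 and 1 C/EBP motifs. In the whole family 5 tested regions had peaks in 1 group only, always GATA2, the other 2 being Cebpg +71.8 kb and Cebpb +23.4 kb (40577 to 47243, a difference of 0.13 ± 0.07, adjusted p = 0.192).

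Just upstream of the gene, Cebpe -2.8 kb ranked 28422, 17738, 12044 and 13267 with GATA2 and 23192, 28347, 26670 and 24772 with 9aa-Ins. Ranks were 34130, 40702 and 46767 in 3 hi-77-/- empty libraries, and 42931 and 33749 in 2 hi-77+/+ empty libraries. The GATA2 difference was 1.33 ± 0.23 (adjusted p = 8.45e-05) and that of 9aa-Ins 0.72 ± 0.23 (adjusted p = 0.0488), the latter lost on leaving out 1 library, for 7 of the 8 libraries. Cebpe -2.0 kb was lower after deletion, by -0.79 ± 0.20 (adjusted p = 0.0028), and higher with GATA2, by 1.10 ± 0.20 (adjusted p = 0.000195).

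Farther downstream the Cebpe window held regions that ranked lower after deletion. Cebpe +81.4 kb closed, with hi-77+/+ empty ranks of 38408, 42927, 17813 and 32129, no hi-77-/- empty peak and 1 GATA2 peak at 41521. In the full lists 2 hi-77-/- empty libraries had it. Cebpe +58.5 kb, over a coding exon of Acin1, ranked 3701 to 7622 in the controls and 8269 to 14829 in hi-77-/- empty libraries (-0.81 ± 0.25, adjusted p = 0.0109), a call lost without replicate 2 of either group. Cebpe +25.6 kb, at the 5′ end of Acin1, was the 1 region higher after deletion, from 4109 to 7012 in hi-77+/+ empty to 2084 to 3418 in hi-77-/- empty (1.08 ± 0.33, adjusted p = 0.0105). It ranked 1002 to 1973 with GATA2 (0.83 ± 0.33, adjusted p = 0.0756) and 770 to 1659 with 9aa-Ins (1.06 ± 0.33, adjusted p = 0.0435). The 9aa-Ins call was lost on leaving out 1 library, for 6 of the 8 libraries (0.80 to 1.16), and with scores centred by chromosome, the replicate block, no filter on presence or 50% coverage.

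**Figure D3:**
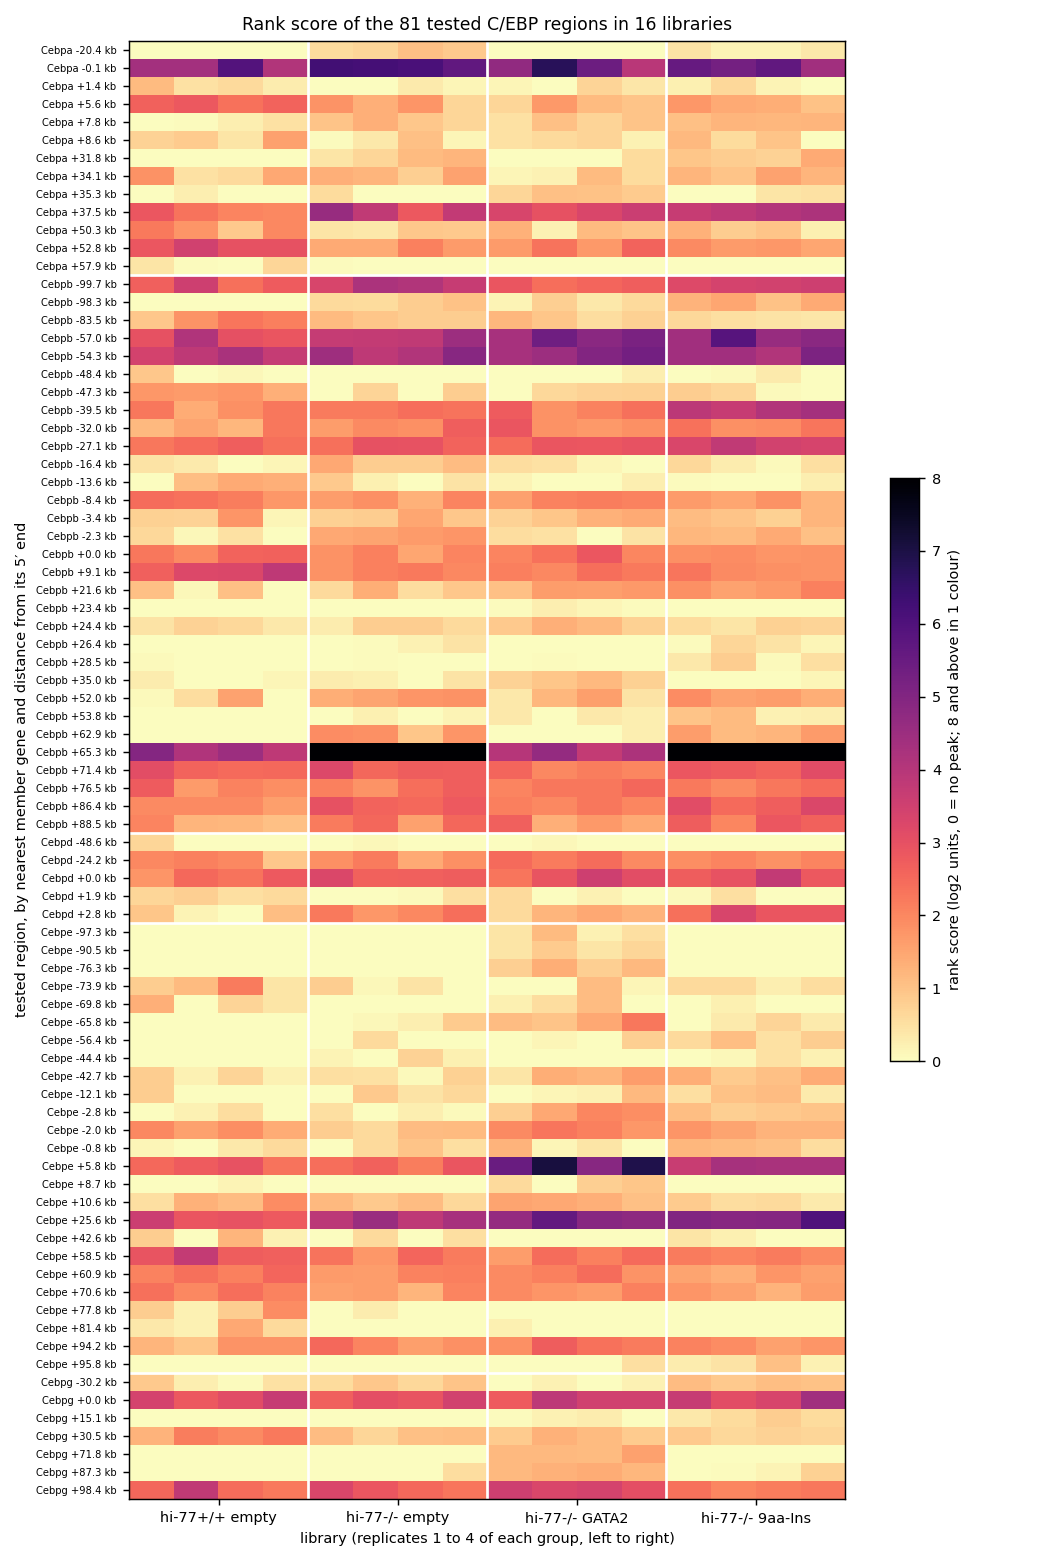
Rank score (colour, log2 units, 0 where no peak was listed, values of 8 and above in 1 colour) of the 81 tested regions, in order of gene and distance, in the 16 libraries, replicates 1 to 4 from left to right within each group. The darkest cells are Cebpb +65.3 kb in hi-77-/- empty and 9aa-Ins libraries, and the block at Cebpe -97.3 to -76.3 kb is filled in GATA2 libraries only.

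Counts of occupied regions per window differed little. The family total had a mean of 62.75 ± 2.63 (SD, n = 4 libraries) in hi-77+/+ empty, 65.0 ± 2.16 in hi-77-/- empty, 71.0 ± 2.45 with GATA2 and 68.25 ± 0.50 with 9aa-Ins. At Cebpe it was 15.0 ± 1.41 in hi-77-/- empty and 19.75 ± 0.96 with GATA2, whose libraries had 19, 19, 21 and 20 regions against 13, 16, 16 and 15. Groups did not overlap there, in the family total of GATA2 or of 9aa-Ins over hi-77-/- empty, and in Cebpg after deletion (15.0 ± 0.82 against 12.5 ± 0.58). Each reached the smallest p the design allows, 0.0286 by a two-sided exact permutation test. Adjusted over 24 such tests it was 0.171, so no window count passed. The deletion total depended on the lists used: over the full lists, whose lengths differ, hi-77-/- empty libraries differed from hi-77+/+ empty libraries by -24.75 regions (exact permutation p = 0.0286, adjusted 0.114).

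**Figure D4:**
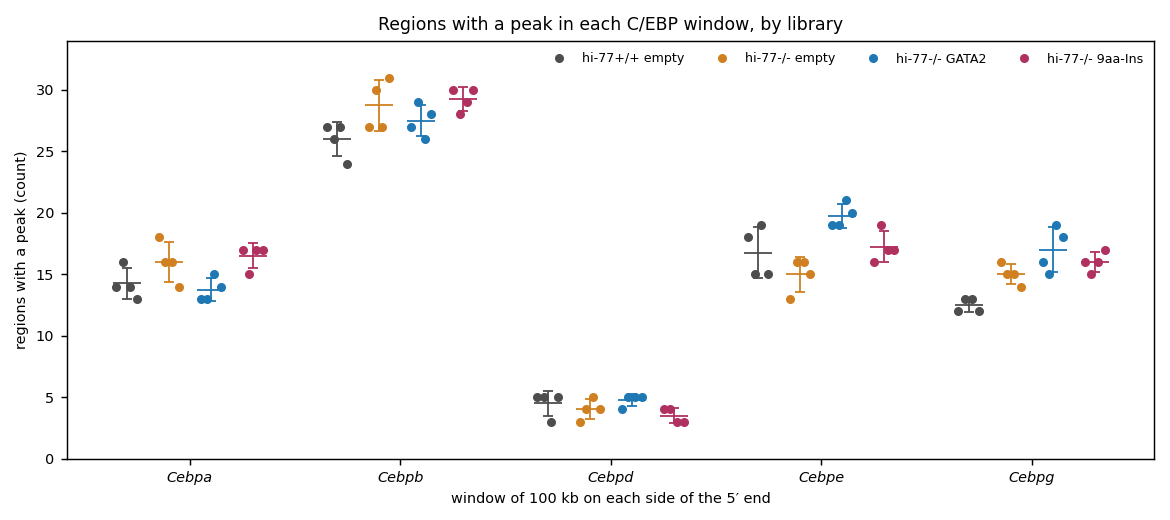
Count of regions holding a peak among the 49000 strongest within 100 kb of each gene's 5′ end. Points are libraries, and bars are the group mean and SD (n = 4). GATA2 libraries hold 19 to 21 Cebpe regions and hi-77-/- empty libraries 13 to 16.

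The member regions were 50 in introns, 48 between genes, 11 over coding exons, 9 over other exons and 9 over UTRs. In summit-centred windows of 300 bases, WGATAR was found at 25 of 81 tested members (30.9%) and at 33.6% of all tested regions. The motif divided by direction under GATA2. It was in 10 of the 13 members called higher with GATA2 (68.2% of all regions so called) and in 4 of the 11 called lower (26.0%). Without regions with peaks in 1 group alone it was in 6 of 9 called higher (65.1%). For 9aa-Ins against GATA2 it was in 10 of 13 called lower (67.0%) and 4 of 17 called higher (25.5%). Without such regions it was in 6 of 9 called lower (63.4%). For deletion it was in 1 of 17 called lower (31.8%) and 4 of 16 called higher (31.6%). The share in members ranked lower after deletion, 5.9%, lay farthest from that of the series, with no test.

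The C/EBP motif TTGCNNAA, a simplified form of the site the family binds, was in 17 of 81 tested members (21%) and in 15.3% of all tested regions. It was in 4 of the 11 members called higher with 9aa-Ins, namely Cebpb +21.6 kb, Cebpb +28.5 kb, Cebpg +15.1 kb and Cebpe +5.8 kb, while 41.2% of all regions so called held it. It was in 5 of the 13 called higher with GATA2 (18.7% of all so called), or 2 of 9 without regions with peaks in 1 group alone, and in 3 of the 11 called lower (15.3%). For 9aa-Ins against GATA2 it was in 7 of 17 called higher (27.0%) and 4 of 13 called lower (13.5%), the latter being 1 of 9 without such regions (12.7%). It was in none of the 17 members ranked lower after deletion (10.7% of all). Over the 42 named regions, summit windows with a match numbered 36 for E-boxes, 24 for ETS, 12 for RUNX, 18 for WGATAR and 11 for C/EBP, against 77.9%, 56.3%, 30.6%, 33.6% and 15.3% of all tested regions. Motifs were searched on both strands and may overlap, and a match is no evidence of binding.

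Leucine zipper relatives, partners and regulators of C/EBP were read at the region of their own 5′ end (within 3 kb), 11 of 12 genes being testable. After deletion 4 ranked higher and none lower, where 20.2% of all tested regions ranked higher. They were Atf4, a stress-response partner of C/EBPγ (1.57 ± 0.51, adjusted p = 0.0158), Ddit3, which encodes the inhibitory relative CHOP (1.23 ± 0.48, adjusted p = 0.0405), Tef (0.77 ± 0.27, adjusted p = 0.0252) and Nfil3 (0.63 ± 0.23, adjusted p = 0.0272). The list median was 0.30. With GATA2 1 of 11 was called, near the 9.15% of all tested regions that ranked higher. It was Hlf, a stem cell gene, from a median rank of 8208 in hi-77-/- empty to 3770.5 (1.15 ± 0.28, adjusted p = 0.00334). Hlf was lower with 9aa-Ins than with GATA2 (-1.08 ± 0.28, adjusted p = 0.00484). With 9aa-Ins 1 of 11 was called, where 6.38% of all tested regions ranked higher. It was Trib1, whose protein promotes C/EBPα degradation, from a median rank of 2122.5 to 659.5 (1.79 ± 0.40, adjusted p = 0.00417). Trib1 was higher with 9aa-Ins than with GATA2 (1.25 ± 0.40, adjusted p = 0.0219). List medians were 0.19 with GATA2, 0.07 with 9aa-Ins and -0.09 between the GATA2 forms.

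Of 20 granulocyte and monocyte genes known as C/EBP targets, 17 were testable at their 5′ ends. After deletion 4 of the 17 ranked higher, near the 20.2% of all tested regions, and none lower (21% of all), with a list median of 0.14. Mpo, the neutrophil granule peroxidase, went from a median rank of 39706.5 to 6267.5 (2.71 ± 0.25, adjusted p = 1.48e-08). Ctsg and Fcnb, also granule genes, and Mmp8, a neutrophil collagenase, were higher by 1.62 ± 0.18, 1.55 ± 0.24 and 1.03 ± 0.21. With GATA2 none ranked higher and 3 lower (12.4% of all regions ranked lower, list median -0.15), namely Fcnb (-1.64 ± 0.24, adjusted p = 9.56e-06), Mpo (-1.20 ± 0.25, adjusted p = 0.000787) and Il6ra, the interleukin-6 receptor (-1.03 ± 0.25, adjusted p = 0.00277).

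With 9aa-Ins, 6 of the 17 targets ranked higher, Lcn2 included, and none lower (median 0.40), beside 6.38% of all tested regions higher. Camp (1.26 ± 0.28), Mpo (1.18 ± 0.25), Ctsg (1.17 ± 0.18), Elane (1.15 ± 0.18), Lcn2 (0.67 ± 0.13) and Csf3r (0.46 ± 0.14) had adjusted p-values from 9.38e-05 to 0.0319. Lcn2, a secondary granule gene, had a peak in all 4 9aa-Ins libraries and in none of the other 12. It entered the test through that group alone, so its difference is a description. Against GATA2, 9aa-Ins had 11 of 17 higher, Lcn2 included, and none lower (median 0.57), beside 16.6% of all regions higher. Mpo (2.39 ± 0.25, adjusted p = 2.59e-07) and Fcnb (1.98 ± 0.24, adjusted p = 1.23e-06) led the list against GATA2. Leaving out regions with peaks in 1 group alone, 5.9% of all regions were higher with 9aa-Ins and 16.5% against GATA2. Gfi1, Myc, Csf2ra, Cd14 and Itgam were not called in any comparison. Ngp and Csf1r had no region within 3 kb, and Mmp9 and Batf had one too rarely present to test.

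**Figure D5:**
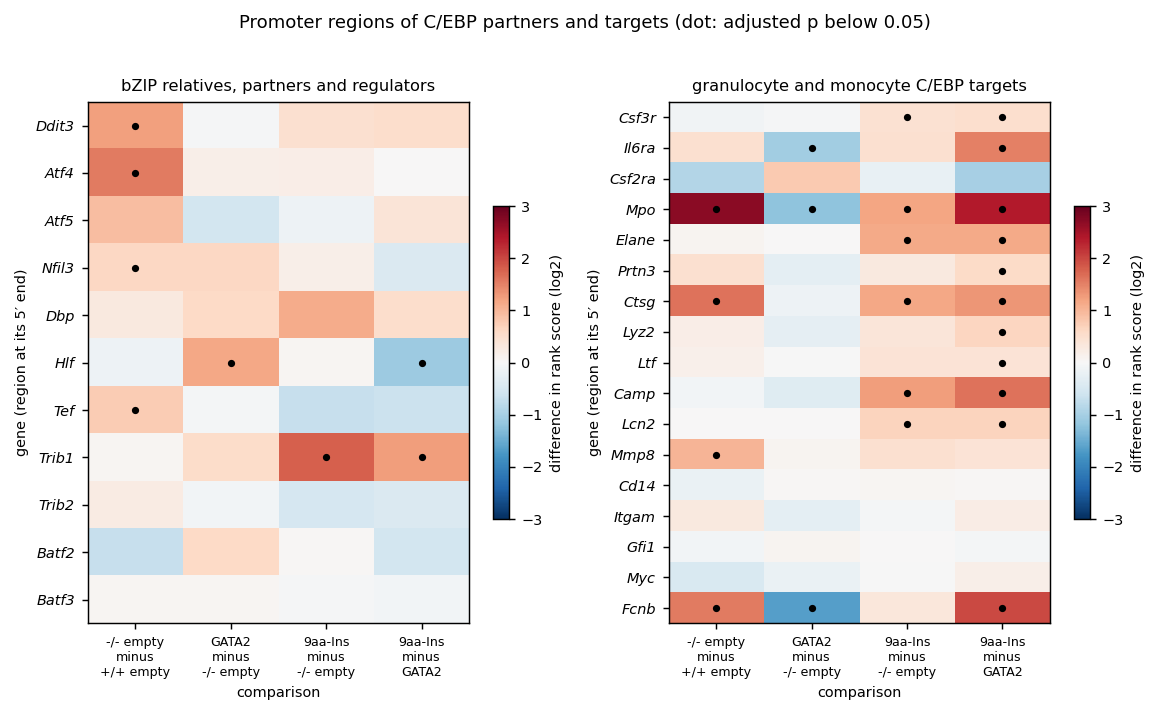
Difference in rank score (colour, log2 units) at the 5′ end regions of the leucine zipper list (left) and the C/EBP target list (right) in 4 comparisons, with a dot where the adjusted p was below 0.05. In the 9aa-Ins minus GATA2 column 11 targets carry a dot, all in the higher direction. They include Lcn2, which had peaks in 9aa-Ins libraries alone.

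Likeness of rank score over the 16 libraries was searched among tested regions at the 5′ ends of protein-coding genes on other chromosomes. Of these regions, the closest to the Cebpa promoter region were those of Nfkbia (Pearson r = 0.849), Tcf7 (0.789) and Mfsd5 (0.785). Those closest to the Cebpa +37.5 kb region were Lamtor4 (0.926), Mmp8 (0.891) and Rilpl2 (0.89). These are descriptions over libraries that share a normalization. The promoter regions of Cebpb, Cebpd and Cebpg varied too little (SD 0.363, 0.487 and 0.457) for such a search.

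The lists held 50195 to 112267 peaks per library, and the Jaccard index of peak sets was 0.670 to 0.774 within groups and 0.501 to 0.715 between them. A region 76.9 kb upstream of Gata2 (chr6:88116294-88117707), where the deleted enhancer lies, had a peak in 4 of 4 hi-77+/+ empty libraries (3093 to 5115). It had a peak in 1, 1 and 2 of 4 hi-77-/- empty, GATA2 and 9aa-Ins libraries (28146 to 47721). In the full lists a peak overlapped it in 4, 2 and 4 of 4 libraries of these groups. At their 5′ ends 9 of 10 progenitor markers had a peak in every library (Lmo2 in none), while Alb, Afp and 4 others of 8 hepatocyte markers, 4 of 6 macrophage, 4 of 5 T cell, 2 of 5 endothelial and 2 of 4 stroma markers had none. The other 2 macrophage markers and 1 stroma marker had a peak in all 16 libraries. Per library, 1 to 2 hepatocyte, 0 to 2 endothelial and 0 to 1 T cell markers had a peak. In every GATA2 and 9aa-Ins library 1 T cell marker had one. Late erythroid markers with a peak numbered 3 to 4 of 7 per library in hi-77+/+ empty, 3 to 5 in hi-77-/- empty, 2 to 3 with GATA2 and 2 with 9aa-Ins, and their part in the differences was not tested. From 2407 to 9094 peaks of a library tied with the 49000th in p and fold enrichment, so ranks among weak peaks also carry the order by position that broke the ties. Of the 20 openings and closings, 17 stood with the tied peaks left out and 14 when absence was required in the full lists.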

How the data were processed

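The authors trimmed reads with Trim Galore 0.4.1, aligned them to mm10 with Bowtie2 2.2.5, removed duplicates with Picard 2.26.0, kept unique reads and ran MACS2 on each library separately. Each deposited peak list gives a display score, a fold enrichment (a ratio), the −log10 of a p-value and of a q-value, and a summit offset. The 49000 peaks of chromosomes 1 to 19 and X with the highest −log10 p (ties by fold, then position) were used per library and merged into regions by 1 bp of overlap. The study tested read counts, which were not used here, so rank scores were tested with limma 3.58.1 (R 4.3.3, moderated with trend and robust settings, all 16 libraries in 1 model, Benjamini-Hochberg adjustment over all tested regions). Window counts had exact permutation tests in scipy 1.17.1. The method was tested on simulated data.

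Depth per library is not given by peak lists, so no counting interval was possible. The members and gene lists were chosen with earlier results of these data known. The 42 named regions were chosen by rule. They were up to 10 called regions of smallest p per comparison, the 3 best-ranked of each gene and all openings and closings. The regions at the 5′ ends and those 36 to 38 kb downstream of Cebpa were added. Not all are described above. Those left out include the openings at Cebpe +95.8 kb with 9aa-Ins and at Cebpb +26.4 kb in 9aa-Ins against GATA2. Other regions given (Cebpe -2.0 kb, Cebpe -0.8 kb and Cebpb -83.5 kb) were picked after their values were seen. Alternatives were fewer peaks (25000), full lists, ranking by fold, peaks under 1 kb, 50% coverage, no presence filter, a rank offset of 1000, centring by chromosome, 50 kb windows, a plain variance model, a replicate block and leaving out each library. Those on tied peaks, on absence from the full lists and on regions with peaks in 1 group alone were chosen after seeing the data. Same-numbered libraries of different groups had deviations correlated at -0.064 to 0.106, so replicate numbers were not treated as pairs.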

Additional observations from a re-analysis of the deposited data

Results flagged for a closer look

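A library stood apart from the other 3 of its group, by Dixon's gap test, in 16 of 141 groups of 4 values, where chance alone gives about 1 in 20. Counts of regions with a peak were lower than the rest of the group in 9aa-Ins replicate 2 at Cebpa (15), in hi-77+/+ empty replicate 3 at Cebpd (3) and in GATA2 replicate 1 at Cebpd (4), and higher in 9aa-Ins replicate 4 for the family (69 against 68 in each of the others). Rank scores stood above their group in hi-77+/+ empty replicate 3 at the Cebpa promoter region (5.94), hi-77-/- empty replicate 1 at the Cebpd promoter region (3.26), GATA2 replicate 4 at Cebpg +71.8 kb (1.59) and Cebpe -56.4 kb (0.811), hi-77+/+ empty replicate 2 and hi-77-/- empty replicate 4 at Cebpb -57.0 kb (4.12 and 4.49), and 9aa-Ins replicate 4 at Cebpe +25.6 kb (5.99). They stood below it in hi-77-/- empty replicate 3 at Cebpb +62.9 kb (0.945), GATA2 replicate 1 at Cebpb -47.3 kb (0.0, no peak) and Cebpb +21.6 kb (1.05), 9aa-Ins replicate 1 at Cebpe +5.8 kb (3.63) and hi-77+/+ empty replicate 4 at Cebpd -24.2 kb (0.934).

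The deletion call at the Cebpa promoter region kept its side of the threshold without the replicate that stood apart. The calls at Cebpg +71.8 kb, Cebpb +62.9 kb and Cebpe +5.8 kb were also kept when the library that stood apart was left out, while the 9aa-Ins call at Cebpe +25.6 kb was lost without 9aa-Ins replicate 4 (0.799 from 1.062).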

How the results depend on the processing

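Of 63 called values of named regions, recomputed 1223 times, 1092 kept direction and call, 128 kept direction only and 3 changed sign. Their call was kept throughout at 28 of the 63. Ranking by fold weakened 0 of its 63 values and left the counts of called members unchanged, so those repeats tested little. With peaks of 1 kb or wider left out, 9aa-Ins against GATA2 was -0.312 at Cebpb +65.3 kb and 0.383 at Cebpe +5.8 kb, and at Cebpb -27.1 kb the 9aa-Ins value was -0.101 where peaks had to cover 50% of a region. Called members numbered 33, 24, 13 and 30 (deletion, GATA2, 9aa-Ins, 9aa-Ins against GATA2). They were 14, 8 and 17 for the last 3 with 25000 peaks, 20, 13 and 8 for the first 3 with 50% coverage, 16, 13 and 15 for deletion, GATA2 and 9aa-Ins against GATA2 in 50 kb windows, where fewer regions were tested, and 8 for 9aa-Ins without the presence filter or centred by chromosome. Leaving out 1 library gave 6 to 11 for 9aa-Ins (6 without hi-77-/- empty replicate 1 or 4 or 9aa-Ins replicate 2), and 26 to 33, 21 to 26 and 24 to 29 for the others. Without regions with peaks in 1 group alone the counts were 33, 20, 13 and 26. With the replicate block the counts were 33, 26, 10 and 29, and 5 of 16 libraries correlated best with their own number.

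Openings and closings numbered 5, 6, 2 and 7. For deletion they were 2 with 25000 peaks, in 50 kb windows or with absence from the full lists required, and 11 with at least 3 of 4 libraries. GATA2 gave 2 in 50 kb windows and 13 with at least 3 of 4, and 6 to 10 on leaving out 1 library (10 without GATA2 replicate 4). 9aa-Ins gave 0 with 25000 peaks, 4 over full lists or peaks under 1 kb, 1 in 50 kb windows or with absence from the full lists, and 2 to 4 on leaving out 1 library (4 without hi-77-/- empty replicate 2). 9aa-Ins against GATA2 gave 3 in 50 kb windows. Family window counts changed sign for 9aa-Ins against GATA2 with 25000 peaks (0.50), full lists (32.75), 50% coverage (17.5) and 50 kb windows (1.75), for deletion over full lists (-24.75), for 9aa-Ins with peaks under 1 kb (-2.75) and for GATA2 with 50% coverage (-7.25) and 50 kb windows (-1.25). The cause was not tested. Scores of weak and absent peaks are the least precise, since ties and the floor at 0 set them.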
